A study of Mus musculus with 7 samples.

Results

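Guanylate-binding proteins and immunity-related GTPases are families of interferon-induced GTPases that macrophages use against intracellular microbes. The members described here were Gbp2, Gbp3, Gbp4, Gbp5, Gbp6, Gbp7, Gbp9, Irgm1, Igtp and Iigp1, which were chosen by name as a fixed list of 10 genes. All 10 were present, and all 10 passed the filter on low values, in a table of 48440 genes (17854 of which passed) and in a table of 55352 genes (11218 of which passed). In mouse bone marrow-derived macrophages (BMDMs), every member's level was higher after LPS, by 5.02-fold or more after 2 h and by 11.7-fold or more after 4 h (3.17-fold and 6.61-fold with reads scaled to library totals), in single libraries that allow no test. In BMDMs transduced with AAV-Shisa3, 5 of the 10 (Gbp3, Gbp4, Gbp5, Gbp9 and Iigp1) were higher than in BMDMs transduced with AAV-GFP, against 2.23% of all genes higher and 4.1% lower. That count fell to 0 without the mean-variance trend or without the filter, in fits where 1 and 0 of all genes were higher. Leaving out any 1 sample also cost calls among the 5. For Gbp2, Gbp6, Gbp7, Irgm1 and Igtp the difference did not pass the test.

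The series held 7 RNA-seq libraries of BMDMs, which are macrophages grown from bone marrow progenitors. The cells came from wild-type C57BL/6 mice and were differentiated with 20 ng/mL M-CSF for 7 days. In the LPS experiment, BMDMs received 100 ng/mL LPS, the lipopolysaccharide of Gram-negative bacteria and the ligand of TLR4, for 0, 2 or 4 h, with 1 library at each time point. In the AAV experiment, BMDMs were transduced for 48 h with an AAV1 vector that carried GFP or Shisa3 behind the CAG promoter, with 2 samples per group. The treatment labels of the AAV samples name the vector and no LPS, although a protocol text common to all samples mentions both. The labels describe the AAV-Shisa3 samples as Shisa3 overexpression, and Shisa3 is a small transmembrane protein. The labels do not say whether the 2 samples of a group came from separate mice or cultures. The p-values below therefore rest in part on a spread between samples that may be technical. The test also draws on the spread of other genes for each gene's error.

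The shallowest LPS library was that of 2 h, with 7263258 recovered reads, beside 15588502 without LPS and 32659392 after 4 h, and the depth of the AAV samples is unknown. The transduced gene was the first check of the labels. In AAV-GFP the 2 samples held 7.88 and 10.8 TPM (a unit of transcript abundance that adjusts for gene length and depth) of Shisa3, and in AAV-Shisa3 they held 12.3 and 17.8 TPM. The groups did not overlap, with a log2 fold change of 0.63 ± 0.22 (SE) that did not pass the test (adjusted p = 0.138, limma). In the LPS libraries, which had no vector, Shisa3 had 1, 164 and 3174 reads at 0, 2 and 4 h. Vector-borne and endogenous Shisa3 cannot be told apart in the AAV values. Macrophage markers (Adgre1, Csf1r, Itgam, Cd68, Fcgr1, Mertk and Lyz2) summed to between 34024 and 37119 TPM in the AAV samples and to a signal between 317521 and 338309 in the LPS libraries. Lyz2 made up most of each AAV sum, at 26378 to 29528 TPM. The T and NK cell markers, which mark the main producers of interferon-γ, summed to between 0.12 and 0.18 TPM, with 4 of 6 at 0 in each AAV sample, and to between 3 and 14 reads in the LPS libraries, where Cd3e, Cd3g and Ncr1 had 0 reads throughout.

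The Gbp genes lay in clusters on the annotation used (GENCODE M21 on GRCm38). Gbp5, Gbp7, Gbp3 and Gbp2 lay in that order on the plus strand of chromosome 3, with Gbp2b between Gbp3 and Gbp2, from 142493978 at the start of Gbp5 to 142638008 at the end of Gbp2. Gbp9, Gbp4 and Gbp6 lay on the minus strand of chromosome 5, from 105077630, the lowest coordinate of Gbp9, to 105293698, the highest coordinate of Gbp6. Irgm1 (48861968 to 48871683, minus strand) and Igtp (58199556 to 58207591, plus strand) were on chromosome 11. Iigp1 was on chromosome 18 (60376027 to 60392634, plus strand). All 10 were annotated as protein-coding.

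Guanylate-binding proteins are large GTPases of the dynamin superfamily that bind the vacuoles around intracellular pathogens and the surface of bacteria in the cytosol, where they expose LPS to caspase-11 and help to start pyroptosis. Immunity-related GTPases fall into regulators, such as Irgm1 and Igtp (Irgm3), which sit on the cell's own membranes, and effectors, such as Iigp1 (Irga6), which load onto and disrupt pathogen vacuoles. Both families are induced by interferon-γ and by type I interferon, and in macrophages LPS acts on them largely through the interferon-β that it induces. The transcription factors bind 2 kinds of element in the promoters of such genes: the interferon-stimulated response element (ISRE), read by interferon regulatory factors, and the gamma-activated site (GAS), named for its role in the response to interferon-γ.

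Promoter sequence, given here because the members moved together under LPS, was at hand for 6 of the 10 members as RefSeq windows on GRCm38.p6 of 300 bases, from 250 bases before to 50 bases after an annotated start; Gbp3 had 2 starts, so there were 7 windows. Each window was searched on both strands for an ISRE core (GAAANNGAAA), a GAS core (TTCNNNGAA) and the κB consensus read by NF-κB. An ISRE core stood in a window of 6 of the 6 members, whereas 3.44% of all 32851 mouse promoter windows held one. A GAS core stood in the windows of 3 members (Gbp5, Gbp7 and Igtp; 8.30% of all windows) and a κB consensus in those of 2 members (Gbp5 and Gbp2; 8.46% of all windows). The matches are shown in capitals below, read 5′ to 3′ along the gene's strand and ending at the base before the annotated start, for Gbp5 (chr3:142496684-142496933, plus), Gbp7 (chr3:142530216-142530335, plus), Gbp3 (chr3:142559924-142560043, plus), Gbp2 (chr3:142620543-142620662, plus), Irgm1 (chr11:48871421-48871540, minus) and Igtp (chr11:58199436-58199555, plus).
Gbp5: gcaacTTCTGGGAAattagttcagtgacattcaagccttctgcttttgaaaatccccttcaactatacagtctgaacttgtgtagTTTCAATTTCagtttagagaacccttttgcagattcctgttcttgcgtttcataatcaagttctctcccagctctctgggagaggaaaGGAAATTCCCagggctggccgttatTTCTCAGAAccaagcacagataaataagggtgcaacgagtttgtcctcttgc
Gbp7: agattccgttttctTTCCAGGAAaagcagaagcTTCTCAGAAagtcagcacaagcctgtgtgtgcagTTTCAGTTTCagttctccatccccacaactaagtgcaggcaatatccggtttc
Gbp3: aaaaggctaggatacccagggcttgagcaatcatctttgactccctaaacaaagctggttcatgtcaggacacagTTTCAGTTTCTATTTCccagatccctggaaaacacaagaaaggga
Gbp2: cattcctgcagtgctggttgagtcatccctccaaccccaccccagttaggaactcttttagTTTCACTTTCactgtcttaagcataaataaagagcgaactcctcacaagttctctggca
Irgm1: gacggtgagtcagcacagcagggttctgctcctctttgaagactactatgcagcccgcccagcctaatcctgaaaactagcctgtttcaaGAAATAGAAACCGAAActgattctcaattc
Igtp: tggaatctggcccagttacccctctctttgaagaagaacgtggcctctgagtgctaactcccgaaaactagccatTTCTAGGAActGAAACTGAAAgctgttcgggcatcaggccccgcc

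In Gbp5 the capitals are, in order, a GAS core, an ISRE core, a κB consensus and a second GAS core. The RefSeq start of Gbp5 lies inside its GENCODE span, which begins at 142493978. Its matches therefore hold for the RefSeq start, and the GENCODE start was not searched. In Gbp7 a pair of GAS cores came before an ISRE core, and in Igtp a GAS core was followed, after 2 bases, by an ISRE core. Gbp3 and Irgm1 each held a pair of ISRE cores that overlapped by 4 bases, and Gbp2 held a single ISRE core before its start and a κB consensus after it, from base 7 to base 16. Matches of different motifs did not overlap in these windows. The second Gbp3 window held none of the 3 motifs. A match of letters is a description of the sequence and does not show that a factor bound there.

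**Figure D1:**
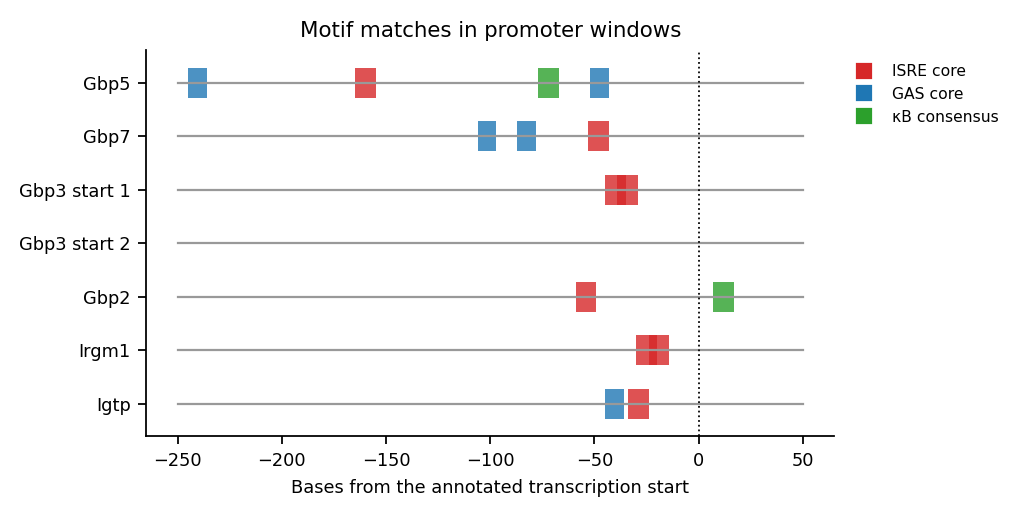
Positions of ISRE core, GAS core and κB consensus matches (coloured boxes) in the 7 RefSeq promoter windows of 6 members, plotted in bases from the annotated transcription start (dotted line). Every member shown has an ISRE core within 165 bases before a start, and Gbp5 is the member that holds all 3 motifs.

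The LPS libraries ask how the GTPase genes followed the stimulus over time. The deposited signal is the reads of a gene over a scaling factor of its library. By that signal all 10 members had gained 2-fold or more by 2 h (20.5% of the 17854 genes kept had) and all 10 by 4 h (22.2% of genes). Between 2 h and 4 h, 6 of 10 were at least 2-fold higher (17.9% of genes), and Gbp3, Gbp5, Gbp7 and Irgm1 were not. The median log2 difference of the members was 3.77 at 2 h and 5.05 at 4 h, where the median of all genes kept was -0.05 and -0.04. Without LPS the members took 0.0452% of all reads (95% Wilson interval 0.0442% to 0.0463%). Their share was 0.485% (0.480% to 0.491%) after 2 h and 0.846% (0.843% to 0.849%) after 4 h. These single libraries allow no test, and every interval on these libraries covers counting error only. In bulk RNA, more RNA per cell and more cells that hold it cannot be told apart.

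Gbp2, one of the guanylate-binding proteins that are recruited to pathogen vacuoles and bacteria, had a signal of 944 without LPS, 17094 after 2 h and 47101 after 4 h. It was 18.1-fold higher at 2 h (95% counting interval 17.1 to 19.2) and 49.9-fold higher at 4 h (47.4 to 52.6) than at 0 h. Gbp2 was the member with the highest signal at 4 h. Gbp5, which is known for its part in inflammasome activation, had a signal of 219, 23223 and 23053. It was 106-fold higher at 2 h (95.3 to 119) and 105-fold higher at 4 h (94.7 to 118), so that it had reached its 4 h level by 2 h; the ratio of 4 h to 2 h was 0.993 (0.972 to 1.01). Among the 17854 genes kept, Gbp5 ranked 49 for the increase at 2 h and 74 for that at 4 h, and it ranked 9767 for the change from 2 h to 4 h.

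Gbp3, Irgm1 and Gbp7 gained less than 2-fold between 2 h and 4 h. Gbp3 had a signal of 569.9, 10149.7 and 18763, which was 17.8-fold higher after 2 h and 32.9-fold after 4 h. Irgm1, the regulator that protects host membranes from the effector GTPases, had a signal of 840.1, 10831 and 16490.3, and was 12.9-fold and 19.6-fold higher. Gbp7 had a signal of 980.3, 5894 and 11469, and at 11.7-fold (11.1 to 12.3) its increase at 4 h was the smallest of the 10. From 2 h to 4 h these 3 genes were 1.85-fold, 1.52-fold and 1.95-fold higher.

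Iigp1, Gbp6, Gbp9, Gbp4 and Gbp2 went on to larger levels between 2 h and 4 h. Iigp1, the effector GTPase, had a signal of 234, 2050.5 and 11793, which was 8.78-fold higher at 2 h (7.77 to 9.94), 50.5-fold higher at 4 h (45.5 to 56.2) and 5.75-fold higher at 4 h than at 2 h (5.39 to 6.15). It ranked 639 of 17854 genes for the increase at 2 h and 489 for that from 2 h to 4 h. Gbp6 had a signal of 68.8, 1094 and 4973, and was 4.55-fold higher at 4 h than at 2 h. Gbp9 had a signal of 317, 1592 and 5309, and its 5.02-fold increase at 2 h (4.47 to 5.64) was the smallest of the 10. Gbp4 had the lowest signal of the members at each time point, at 47.0, 489 and 1594 (73, 224 and 2934 reads). From 2 h to 4 h, Gbp9 was 3.34-fold, Gbp4 3.26-fold and Gbp2 2.76-fold higher. Igtp, the other regulator, had a signal of 317, 4584 and 9539.6, which was 14.5-fold and 30.1-fold higher than at 0 h and 2.08-fold higher at 4 h than at 2 h. Across the 10 members, the change up to 2 h and the change from 2 h to 4 h had a Spearman correlation of -0.45, which is a description over 10 genes that share the 2 h library.

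**Figure D2:**
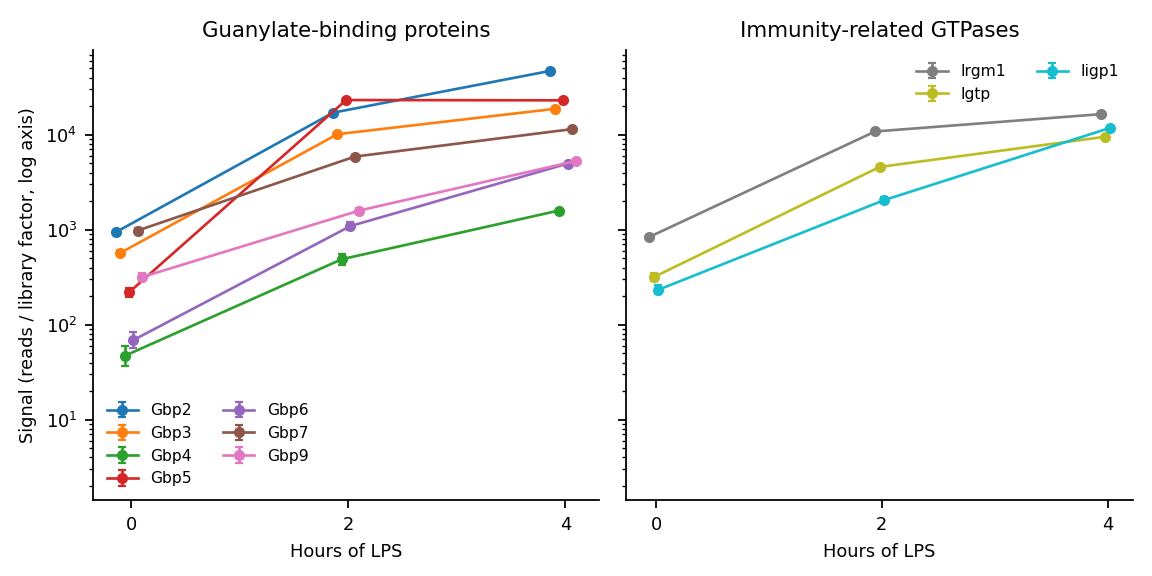
Deposited signal of the 10 GTPase genes (log axis) at 0, 2 and 4 h of LPS, with 1 library per time point and 95% counting intervals as bars; points are shifted sideways a little for legibility. Gbp5 is level between 2 h (23223) and 4 h (23053), while Iigp1 goes from 2050.5 to 11793.

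**Figure D3:**
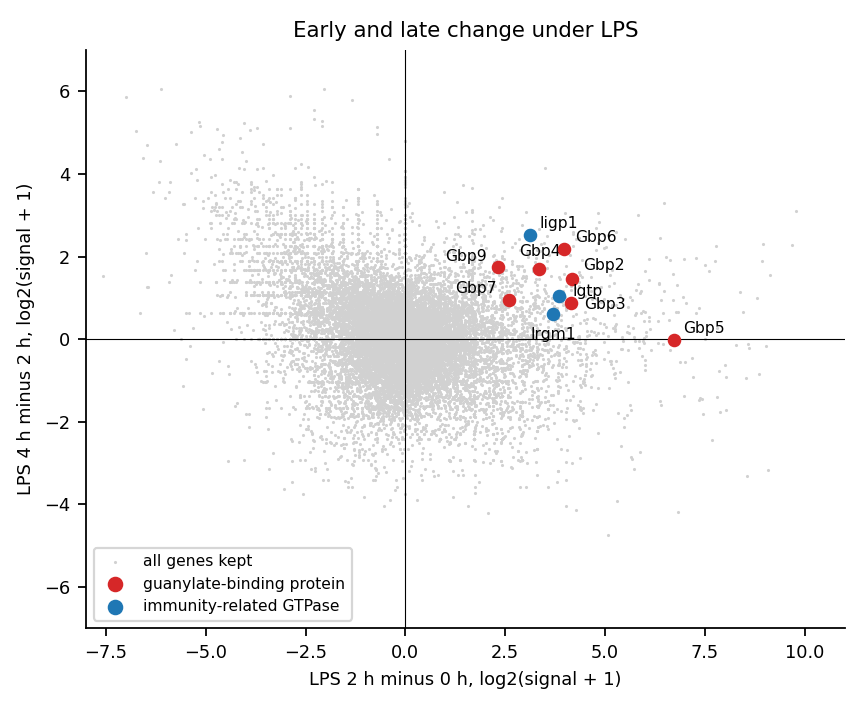
Change from 0 h to 2 h of LPS (x axis) and from 2 h to 4 h (y axis), both as differences of log2(signal + 1), for the 17854 genes kept (grey) and the 10 GTPase genes (red and blue). All 10 lie to the right of 0, and Gbp5 alone of the 10 lies just below 0 on the y axis at -0.01.

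The folds at 2 h and 4 h depended on how the libraries were scaled. With the reads scaled to the library totals, the median of all genes was -0.68 at 2 h and -0.81 at 4 h on the log2 scale. On that scale Gbp2 was 11.4-fold higher at 2 h and 28.2-fold higher at 4 h, Gbp5 67.1-fold and 59.6-fold, Iigp1 5.55-fold and 28.5-fold, Gbp9 3.17-fold and 9.46-fold, and Gbp7 3.80-fold and 6.61-fold. All 10 members were still at least 2-fold higher at both times on that scale (13.7% and 13.1% of all genes), and 5 of 10 were so from 2 h to 4 h (13.7%).

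Levels of different genes were compared per base of exon, with the reads of a gene divided by its exon length and the library rescaled to a sum of 1000000. On this scale Gbp2 was the highest of the members at each time, at 83.2, 819 and 2461. At 0 h it was followed by Gbp7 (38.7), Gbp3 (38.7), Igtp (34.8) and Irgm1 (32.1), and the other members were at or below 13.6. At 4 h the order after Gbp2 was Gbp3 (755), Igtp (620.2), Gbp5 (457), Irgm1 (373), Gbp7 (269) and Iigp1 (266), and Gbp4 was the lowest at 27.97. Gbp2 ranked 1204 of all genes by this level at 0 h, 116 at 2 h and 35 at 4 h. In the AAV-GFP samples, whose table was normalized separately, Irgm1 (181 and 165 TPM) and Igtp (178 and 171 TPM) were the highest of the members, ahead of Gbp2 (133 and 124 TPM), and Gbp4 (3.85 and 3.95 TPM) was again the lowest. Irgm1 overlapped Igtp, Gbp7 overlapped Gbp5 and Iigp1 overlapped Gbp9 in those samples, so that the order within these pairs was not resolved.

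The AAV samples ask whether the same genes differed between BMDMs given the Shisa3 vector and BMDMs given the GFP vector. The test was limma's on log2(TPM + 1) over 11218 genes, with Benjamini-Hochberg adjustment over all of them. Of the 10 members, 5 were higher in AAV-Shisa3 than in AAV-GFP at an adjusted p under 0.05, and 0 were lower; of all genes tested, 2.23% were higher and 4.1% lower. For 9 of 10 members the AAV-Shisa3 samples lay wholly above those of AAV-GFP, against 18.2% of all genes, with Gbp2 as the exception. The members' median log2 fold change was 0.60, where that of all genes was -0.10. At an unadjusted p under 0.05 the count was 7 of 10 higher and 0 lower, where 8.21% of all genes were higher and 19.8% lower.

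Iigp1 had the largest difference of the 10. It was at 15.5 and 14.9 TPM with AAV-GFP and reached 41.4 and 35.2 TPM with AAV-Shisa3, with no overlap. Its log2 fold change was 1.27 ± 0.11 (SE; adjusted p = 0.0153, limma), and it ranked 50 of 11218 genes by fold change.

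Gbp5 was at 17.4 and 19.9 TPM in AAV-GFP and at 43.8 and 36.9 TPM in AAV-Shisa3, and Gbp4 at 3.85 and 3.95 TPM against 8.75 and 9.98 TPM. For both genes the groups lay well apart. The log2 fold change was 1.07 ± 0.12 (SE; adjusted p = 0.0196, limma) for Gbp5 and 1.08 ± 0.14 (SE; adjusted p = 0.0216, limma) for Gbp4. Gbp4 was the member with the lowest level.

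Gbp3 was at 66.7 and 71.5 TPM in AAV-GFP and at 134 and 98.7 TPM in AAV-Shisa3. Its AAV-Shisa3 samples were both higher but far from each other, and its log2 fold change of 0.73 ± 0.15 (SE) passed narrowly (adjusted p = 0.0496, limma). Gbp9 was at 14.8 and 16.2 TPM against 26.1 and 22.1 TPM, with a log2 fold change of 0.60 ± 0.12 (SE; adjusted p = 0.0465, limma).

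The 5 other members did not pass the test, which does not show that they were level. Gbp7 was at 18.4 and 24.7 TPM in AAV-GFP and at 33.4 and 31.6 TPM in AAV-Shisa3, with a log2 fold change of 0.59 (95% interval 0.22 to 0.96; adjusted p = 0.0760, limma). Its AAV-GFP samples were the most spread of the 10 in relation to their mean. Irgm1 was at 181 and 165 TPM against 236 and 204 TPM, with a log2 fold change of 0.34 (0.10 to 0.58; adjusted p = 0.0961, limma). Gbp6 was at 33.6 and 36.5 TPM against 45.8 and 38.0 TPM, and Igtp at 178 and 171 TPM against 206 and 185 TPM. Their log2 fold changes were 0.25 (-0.04 to 0.54) and 0.17 (-0.04 to 0.37), with adjusted p of 0.233 and 0.248 (limma). Gbp2, which stood out under LPS for its level, was at 133 and 124 TPM against 165 and 123 TPM. Its AAV-Shisa3 samples enclosed its AAV-GFP samples, and its log2 fold change was 0.15 (-0.21 to 0.51; adjusted p = 0.534, limma).

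**Figure D4:**
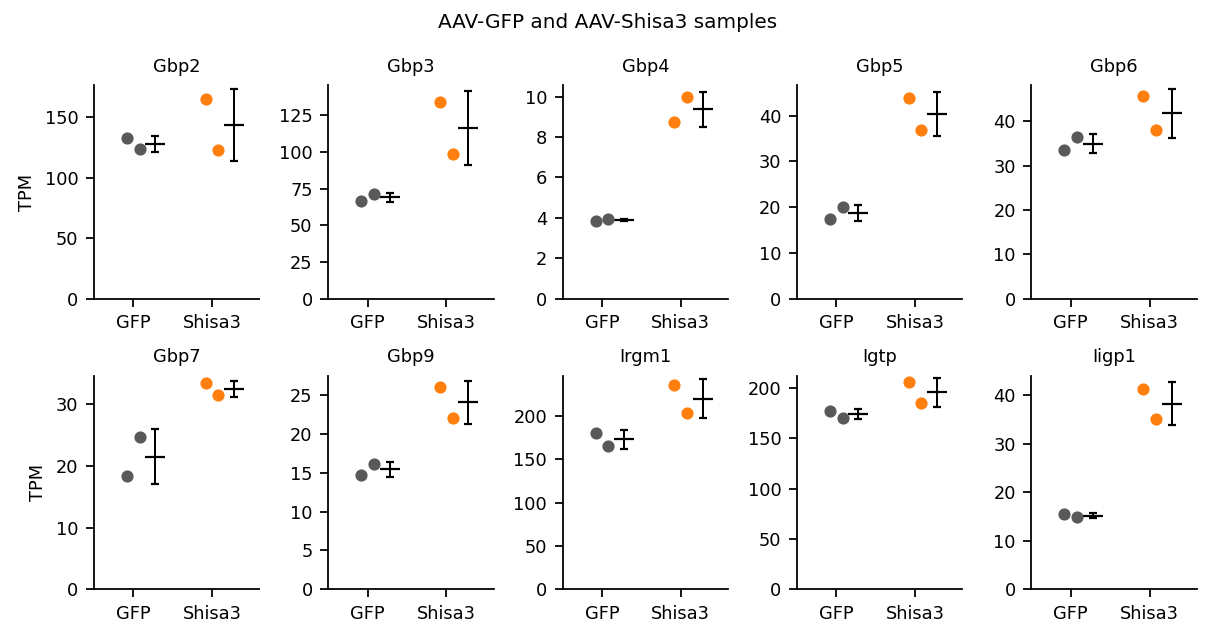
TPM of the 10 GTPase genes in the 2 AAV-GFP samples (grey) and the 2 AAV-Shisa3 samples (orange), each panel on its own linear axis from 0; the cross bar is the mean and the error bar the SD of the 2 samples. The groups are apart for Iigp1, Gbp4 and Gbp5, and overlap for Gbp2.

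Ratios within a sample put the ends of this range side by side; the genes were chosen for their differences, so the ratios add no support. Iigp1 was 0.0873 and 0.0871 of the level of Igtp in the AAV-GFP samples and 0.201 and 0.190 of it in the AAV-Shisa3 samples. Gbp5 was 0.131 and 0.161 of the level of Gbp2 in AAV-GFP and 0.266 and 0.301 of it in AAV-Shisa3.

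The 5 calls depended on the fit and on each sample. No member passed when limma was run without its mean-variance trend or without the filter on low values, settings under which 1 and 0 of all genes were higher and 4 and 0 lower; in both, 7 of 10 members were higher at an unadjusted p under 0.05, as were 7.23% and 5.5% of all genes. No member passed without AAV-GFP 1, without AAV-GFP 2 or without AAV-Shisa3 1, and Iigp1 alone of the members passed without AAV-Shisa3 2. Of all genes 0 passed without either AAV-GFP sample, 20 were higher and 5 lower without AAV-Shisa3 1, and 32 were higher and 10 lower without AAV-Shisa3 2. The lone sample left in a group was then taken to vary like the other group. Over all alternatives the adjusted p of Iigp1 lay between 0.00804 and 0.145, that of Gbp5 between 0.0108 and 0.145, that of Gbp4 between 0.0124 and 0.145, that of Gbp3 between 0.0310 and 0.201 and that of Gbp9 between 0.0352 and 0.192. The direction held for all 10 members in each alternative except for Gbp2, at -0.06 without AAV-Shisa3 1.

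AAV-Shisa3 1 was the higher of the 2 AAV-Shisa3 samples for 9 of the 10 members, with Gbp4 as the exception, and the 10 summed to 661 and 647 TPM in AAV-GFP and to 940.0 and 784 TPM in AAV-Shisa3. The sum of 6 neutrophil markers (S100a8, S100a9, Ly6g, Mpo, Elane and Camp) had the same order over the 4 samples, at 527 and 494 TPM in AAV-GFP and 937 and 579 TPM in AAV-Shisa3. S100a8 and S100a9 made up most of the sum. Camp was at 13.6 and 13.9 TPM in AAV-GFP and at 40.2 and 24.7 TPM in AAV-Shisa3, while Mpo (0.70, 1.55, 1.82 and 3.34 TPM) and Elane (0.89, 1.95, 3.42 and 4.25 TPM) were highest in AAV-Shisa3 2. All 6 were detected in every sample, and the defining marker Ly6g lay between 0.10 and 0.29 TPM. The part of these markers in the result was not tested. Without AAV-Shisa3 1, the log2 fold change was 1.16 for Iigp1, 1.16 for Gbp4, 0.95 for Gbp5, 0.51 for Gbp3 and 0.49 for Gbp9. In the LPS libraries the same markers summed to a signal of 2888 without LPS, 5330.3 after 2 h and 4787 after 4 h, and their part there was not tested either.

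Some members share sequence with neighbouring genes, so that reads could be split between them or counted for neither. Of the 150-base windows along the transcripts of Gbp6, 59.1% occur letter for letter in another gene, most often in the overlapping gene Gm43302, and 8.77% of those of Gbp7 occur in Gm43802. The shares were 0 for Gbp2, Gbp3, Gbp5, Gbp9, Irgm1 and Iigp1, and under 1% for Gbp4 and Igtp. Gm43302 had 84, 360 and 6203 reads at 0, 2 and 4 h, next to 107, 501 and 9152 for Gbp6, and was at or below 0.23 TPM in the AAV samples. The values of Gbp6 are therefore uncertain, and those of Gbp7 to a lesser degree. The spans of Gbp4, Gbp9 and Gbp8 overlap on the same strand, as do those of Igtp and Irgm2, although no window was shared among the first 3 and 0.739% of those of Igtp were shared with Irgm2.

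The other genes of the 2 families were taken from a list of 22 symbols, 17 of which were in both tables. By signal, 12 of the 17 had gained 2-fold or more after 2 h of LPS (20.5% of all genes) and 14 after 4 h (22.2%), with Irgc1 set aside because it had 2 reads or fewer in each library. The 12 include Gbp2b, which had 4 reads at both times (95% counting interval of the fold 0.632 to 18.2). With reads scaled to library totals the counts were 8 and 12 (13.7% and 13.1% of all genes). Ifi47 (Irgd) had a signal of 449.6, 5669 and 16477, and Irgm2, the regulator next to Igtp, had 562, 4970.0 and 6314. Tgtp2 (Irgb6), an effector GTPase of which 68.4% of windows are shared with its twin Tgtp1, had 165, 1395 and 5553. Per base of exon, Gbp8 was at 2.40, 1.07 and 1.14, which at 0 h was above Gbp4 among the members, and Gbp2b, Gbp10 and Gbp11 were at or below 3.26 at each time. Irgq, a distant relative, was 2.44-fold higher at 2 h (2.14 to 2.78) and 0.884-fold at 4 h (0.786 to 0.994), where the direction turned with libraries centred on their medians; with reads scaled to library totals it was 1.54-fold and 0.499-fold.

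In AAV-Shisa3, 2 of the 12 other family genes tested were higher and 0 were lower (2.23% and 4.1% of all genes). At an unadjusted p under 0.05, 5 were higher and 1 was lower (8.21% and 19.8%). Ifi47 was at 159 and 160 TPM in AAV-GFP and at 288 and 259 TPM in AAV-Shisa3, with a log2 fold change of 0.77 ± 0.08 (SE; adjusted p = 0.0174, limma). Tgtp2 was at 108 and 83.7 TPM against 153 and 153 TPM, with a log2 fold change of 0.68 ± 0.13 (SE; adjusted p = 0.0397, limma). The other 10 had log2 fold changes from -0.65 (Gbp10) to 0.35 (Gm4951) and did not pass. The median of the 12 was 0.21, and neither call held without the trend or the filter, or with any 1 sample left out.

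**Figure D5:**
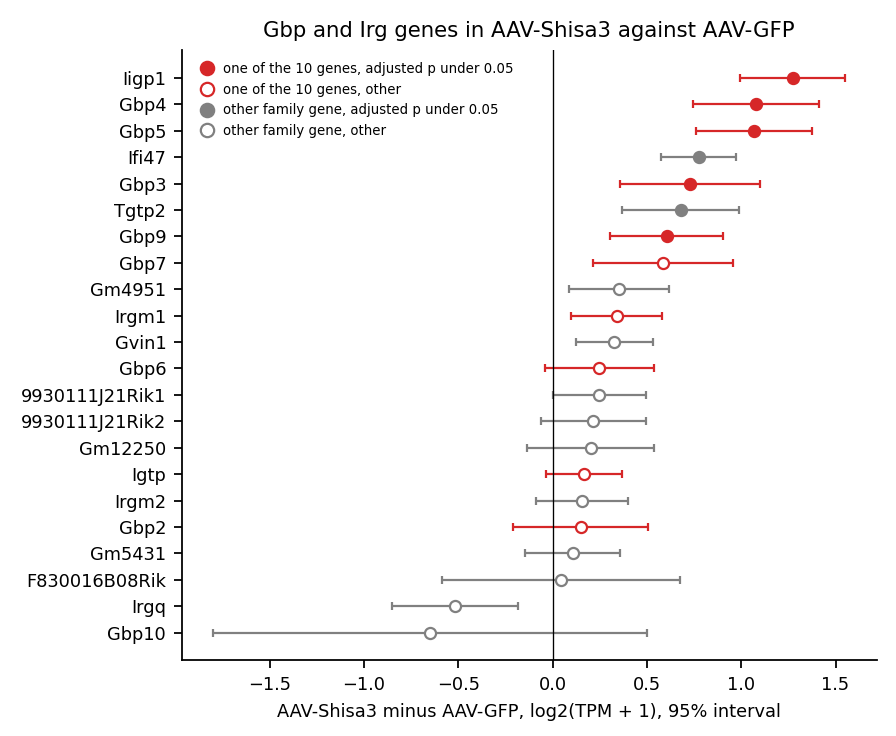
Log2 fold change, AAV-Shisa3 minus AAV-GFP on log2(TPM + 1), with limma's 95% interval, for the 10 GTPase genes (red) and the 12 other family genes tested (grey); filled points passed an adjusted p of 0.05. Iigp1, Gbp4 and Gbp5 lie furthest to the right, at 1.27, 1.08 and 1.07.

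The inducers and signalling genes upstream of these GTPases were taken from a list of 22. By signal, 17 of the 21 kept had gained 2-fold or more after 2 h of LPS (20.5% of all genes) and 18 after 4 h (22.2%), and with reads scaled to library totals 12 and 11 had (13.7% and 13.1%). Interferon-γ (Ifng) had 0, 0 and 1 reads in the LPS libraries and was listed at 0 in all AAV samples. Interferon-β (Ifnb1) had 1, 35 and 38 reads, and it was set against a floor of 3 reads for the library without LPS. By signal Ifnb1 was then at least 39.6-fold higher after 2 h and at least 10.7-fold after 4 h. With reads scaled to library totals these bounds were 25.04-fold and 6.05-fold. The bounds take the reads at 2 h and 4 h as exact and hold no counting error. Irf1, a transcription factor that interferons and NF-κB induce, had a signal of 1501, 30233 and 10029, and Socs1, an inhibitor of JAK kinases, had a signal of 24.4, 5667 and 2157. By signal, Irf1 and Socs1 were lower at 4 h than at 2 h, while 9 of the 10 members were higher and Gbp5 was level. Batf2, Usp18 and Jak2 were 57.1-fold, 64.6-fold and 29.6-fold higher by signal at 4 h than at 0 h, and 32.3-fold, 36.5-fold and 16.7-fold with reads scaled to library totals.

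In AAV-Shisa3, 1 of 20 upstream genes tested was higher and 0 were lower (2.23% and 4.1% of all genes). At an unadjusted p under 0.05, 6 were higher and 0 lower (8.21% and 19.8%). Socs1 was at 8.18 and 9.56 TPM in AAV-GFP and at 16.2 and 16.7 TPM in AAV-Shisa3 (log2 fold change 0.83 ± 0.12, SE; adjusted p = 0.0263, limma). Ifnb1 was at 1.45 and 0.95 TPM against 1.51 and 0.99 TPM, with overlapping groups. Irf1 was at 63.2 and 60.0 TPM against 74.0 and 67.6 TPM, and its log2 fold change of 0.20 did not pass (adjusted p = 0.205, limma), although the groups did not overlap.

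Genes on which the GTPases depend were described by 2 more lists. Of 14 genes of ubiquitin and ubiquitin-like conjugation (Atg genes, their substrates and ubiquitin ligases), on which the placing of these GTPases on vacuoles depends, 0 passed in either direction in AAV-Shisa3, and an unadjusted p under 0.05 was reached by 2 with a higher and 2 with a lower level (8.21% and 19.8% of all genes). Under LPS 4 of the 14 had gained 2-fold or more by 2 h (20.5% of all genes) and 3 by 4 h (22.2% of all genes). These shares were close to those of all genes. By signal at 4 h, 2 of the 14 were lower by 2-fold or more, against 4207 of the 17854 genes kept. With reads scaled to library totals 3 had gained so by 2 h and 2 by 4 h (13.7% and 13.1% of all genes). Among those that gained at both times were the ubiquitin ligases Rnf213, with a signal of 15337, 131763 and 195336, and Trim21, with 481, 4033 and 5341. Of 6 genes of protein prenylation and its handling, by which Gbp2 and Gbp5 gain their lipid anchor, 0 passed in AAV-Shisa3, and 2 were lower at an unadjusted p under 0.05 (19.8% of all genes). Pggt1b, a subunit of the enzyme that adds geranylgeranyl lipids, was at 20.9 and 26.3 TPM in AAV-GFP and at 17.1 and 16.4 TPM in AAV-Shisa3 (log2 fold change -0.46, 95% interval -0.79 to -0.13; adjusted p = 0.0966, limma).

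Downstream, the list held 8 genes of the inflammasome and of nitric oxide synthesis. After 4 h of LPS 7 of 8 had gained 2-fold or more by signal (22.2% of all genes), and 6 with reads scaled to library totals (13.1%). Casp4, which encodes the LPS sensor caspase-11, had a signal of 298, 2952 and 6107, and Nos2 had 9, 2724 and 94656 reads. In AAV-Shisa3, 1 of 8 was higher and 0 were lower (2.23% and 4.1% of all genes), and at an unadjusted p under 0.05 the counts were 3 and 1 (8.21% and 19.8%). Nlrp3, the sensor of the canonical inflammasome, was at 35.5 and 39.2 TPM in AAV-GFP and at 70.4 and 74.9 TPM in AAV-Shisa3 (log2 fold change 0.94 ± 0.09, SE; adjusted p = 0.0168, limma). Casp4 was at 77.3 and 66.9 TPM against 101 and 67.1 TPM, with overlapping groups. The calls of Nlrp3 and Socs1 were lost under the same settings as those of Ifi47 and Tgtp2.

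The responses to LPS and to AAV-Shisa3 ordered the members differently. Gbp2 was 49.9-fold higher at 4 h of LPS, and its log2 fold change in AAV-Shisa3 was 0.15. Iigp1, Gbp4 and Gbp5, with the largest values in AAV-Shisa3, were 50.5-fold, 34.0-fold and 105-fold higher at 4 h. Gbp6, second to Gbp5 at 4 h with 72.3-fold, had a log2 fold change of 0.25 in AAV-Shisa3. Over the 10 members the Spearman correlation between the AAV-Shisa3 log2 fold change and the LPS log2 difference was 0.21 at 4 h and -0.27 at 2 h. It is a description over 10 genes, and the LPS side rests on 1 library per time point.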

How the data were processed

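RNA-seq of 7 BMDM libraries was analysed from the gene tables that the authors deposited. For the LPS experiment, the deposited signal per gene is its reads over a scaling factor of the library. This was inferred from the values: each library had a smallest step, and 100% of its values were whole multiples of it (tolerance 0.02 reads), so that the steps gave back the reads. For the AAV experiment, the deposited values sum to just under 1000000 per sample and were read as TPM, which is inferred. The aligner, counter and annotation are not given in the sources used here. The submitters' processing notes name the build mm9, whereas positions and exon lengths here came from GENCODE M21 on GRCm38. Columns of no sample numbered 0 in either table.

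The members and gene lists were chosen with earlier results of these data known. Genes with a mean of at least 1 were kept. AAV groups were compared with limma 3.58.1 (trended, on log2(TPM + 1); R 4.3.3) with Benjamini-Hochberg adjustment over all genes kept and a threshold of 0.05; the script was tested on simulated data. LPS libraries were compared by folds of the signal, called at 2-fold, with exact conditional 95% intervals on the reads. Genes with 3 reads or fewer at 0 h were set against 3 reads. Named genes were the 10 members, the other Gbp and Irg genes, called genes of the other lists and up to 4 of each with the largest fold at 4 h of LPS, Ifng, Ifnb1, Irf1, Socs1 and Shisa3, with 1 further gene not reported here; Gm43302 and Gm43802 were added because they share sequence with members. Alternatives were the trend, filter, pseudocount, scaling, replicate block and leaving out each AAV sample. Sequence of 4 members' promoters and of the proteins was not used here.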

Additional observations from a re-analysis of the deposited data

Results flagged for a closer look

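Irgq, which encodes a distant relative of the immunity-related GTPases, was higher at 2 h of LPS and not at 4 h. Its log2 difference from 0 h was 1.29 at 2 h and -0.18 at 4 h, as its signal of 360.2 without LPS became 880.02 after 2 h and 318 after 4 h. The sign at 4 h depended on the scaling: with libraries centred on their medians the log2 difference was 1.599 at 2 h and 0.19 at 4 h, and with reads scaled to library totals it was 0.63 at 2 h and -0.9988 at 4 h. With 1 library per time point the difference was not tested.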

How the results depend on the processing

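For the members in AAV-Shisa3 against AAV-GFP, the count of 5 higher became 0 without the trend and 0 without the filter, and lay between 0 and 1 with 1 sample left out; of all genes, 1, 0 and 0 to 32 were higher in these fits. It was 6 with samples centred on their medians (Gbp7 was added), 5 with a floor of 1 TPM in each sample and 5 with a pseudocount of 0.1. Batf2, Trim21 and the other family gene Gvin1 also passed with centring, and Batf2 also passed with the floor. Centring turned the split of all genes from 250 higher and 460 lower to 410.0 higher and 230.0 lower. In a fit with the replicate block, 6 members passed (Irgm1 was added), and so did Shisa3, Batf2 and Usp18, with 424 higher and 851 lower of all genes. No label ties same-numbered samples to a common culture. Their deviations had a correlation of 0.19, a single value since groups of 2 mirror each other, which does not settle whether they pair. At an unadjusted p under 0.05, 6 to 10 members were higher in these alternatives, where 5.5% to 14.7% of all genes were.

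For LPS, 10 of 10 members gained 2-fold or more by 2 h, and by 4 h, in all 7 alternatives, and 5 to 7 were so from 2 h to 4 h. Of all genes, 13.7% to 26.9%, 13.1% to 29.6% and 10.2% to 19.4% were. Single genes that did not pass the test could turn in sign. With 1 sample left out, the log2 fold change ran from -0.062 to 0.36 for Gbp2, -1.35 to 0.050 for Gbp10, -0.16 to 0.25 for F830016B08Rik, -0.14 to 0.20 for Ifnb1, -0.031 to 0.19 for Fntb, -0.099 to 0.48 for Casp4 and -0.077 to 0.14 for Casp1. Arhgdia was at 0.054 with centring. The cause was not tested.

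The members' reads were fewest at 0 h, where Gbp4 had 73, although the 2 h library was the shallowest. The depth of the AAV samples is unknown, and 2 samples per group limit their precision.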
